A study of Mus musculus with 9 samples.

Results

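Translation initiation and elongation factors are described here as the protein-coding mouse genes whose symbol starts with Eif or Eef, without pseudogenes. The gene symbols were matched through the GENCODE annotation, and 68 of 55487 gene identifiers in the deposited tables were such genes. They were followed in 3 groups of 3 RNA libraries each, all from lymph node cells of C57BL6/J mice of WT (wild-type) genotype that are labelled as naive CD4+ T cells. In the IL-1b-treated group the cells were kept in culture for 20 h with recombinant IL-1b, an inflammatory cytokine, at 10 ng/mL. In the cultured group they were kept for the same 20 h without IL-1b. In the fresh group RNA was taken right after the cells had been prepared. Whether the 3 libraries of a group stand for different animals or dishes is not labelled. The p-values therefore measure only the spread between these libraries, which may be technical.

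Initiation factors bring the ribosome to a messenger RNA. The cap-binding complex eIF4F holds the capped end, eIF3 keeps the small ribosomal subunit ready, eIF2 delivers the initiator tRNA, and small scanning factors find the start codon. Elongation factors then carry aminoacyl-tRNAs to the ribosome and move it along, and naive T cells, which are quiescent, are known to hold protein synthesis low until they are stimulated.

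Library totals lay between 13518814 and 23056686 expected counts, and 13043 genes passed the filter on low counts and were tested. The labelled cell type could be checked against its markers: the TPM (a length-normalised relative transcript abundance) of 8 markers of naive helper T cells, Cd4 and Cd3e among them, summed to between 3085 and 3136 in IL-1b-treated, 3666 and 3700 in cultured, and 5028 and 5150 in fresh libraries. The 5 B cell markers used here summed to between 158 and 175 TPM in IL-1b-treated, 181 and 190 in cultured, and 434 and 493 in fresh libraries, most of it Ighm. The other 4 (Cd79a, Cd79b, Ms4a1 and Pax5) were at most at 2.95 TPM in IL-1b-treated and 1.96 in cultured libraries, and between 1.95 and 18.02 in fresh libraries, and all 4 fell after culture. The summed levels of 2 CD8 markers lay between 37.9 and 42.4 TPM in IL-1b-treated, 41.2 and 50.1 in cultured, and 23.8 and 25.6 in fresh libraries, and those of 5 myeloid markers between 88.8 and 98.7 TPM in IL-1b-treated, 80.6 and 87.0 in cultured, and 65.7 and 78.0 in fresh libraries. Most of that sum was Cst3, which rose after culture, while the other 4 myeloid markers were at most at 0.93 TPM in IL-1b-treated and 0.66 in cultured libraries, and between 0.42 and 14.55 in fresh libraries, and 3 of them fell after culture (Lyz2 by 6.57 on the log2 scale). The 3 neutrophil markers reached 31.9 TPM in fresh libraries and at most 1.38 in both cultured groups, the 5 erythroid markers reached 35.7 TPM in fresh libraries and at most 4.03 after culture, and the 3 NK markers stayed at or under 2.73 TPM throughout. The part of these other cells in the values below was not tested, and in bulk RNA fewer cells of a type and less RNA per cell cannot be told apart.

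The factors covered a wide range of levels. Per length and in TPM, 25 of the 68 had a group mean of at least 100 TPM in IL-1b-treated libraries, 27 in cultured ones and 29 in fresh ones. Eef1a1 (ENSMUSG00000037742, mm10 chromosome 9, 78478449 to 78489151, minus strand), which delivers aminoacyl-tRNA to the ribosome, led them with 17176 ± 202 TPM in IL-1b-treated libraries, 16616 ± 125 in cultured ones and 13343 ± 216 in fresh ones (SD, n = 3 each). The next levels were those of Eef1b2 and Eef2, between 1665 and 2639 TPM in group means, followed by the RNA helicase gene Eif4a2. Its paralog Eif4a1 came next in IL-1b-treated and cultured libraries, but in fresh libraries stood below Eef1g and Eif1. Eef1a2, the paralog of Eef1a1 known from muscle and neurons, and Eif4e1b, a relative of the cap-binding protein known from oocytes, had 0 counts in all 9 libraries, where 3 counts would have been between 0.130 and 0.222 CPM (library-size-normalised counts). Eef1akmt3 had 11 counts in total, and these 3 genes were not tested, which leaves 65.

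Together the 68 genes took 3.86 ± 0.013% of all counts in IL-1b-treated libraries, 3.50 ± 0.0013% in cultured ones and 2.92 ± 0.0024% in fresh ones (SD, n = 3 each). Eef1a1 alone accounted for 2.15 ± 0.015% in IL-1b-treated libraries, 1.80 ± 0.011% in cultured ones and 1.26 ± 0.011% in fresh ones. Per length, all 68 genes summed to 29519 ± 267 TPM in IL-1b-treated libraries, 30001 ± 169 in cultured ones and 27371 ± 95.1 in fresh ones. Without Eef1a1 the sum was 12343 ± 85.5 TPM in IL-1b-treated libraries, 13385 ± 61.0 in cultured ones and 14028 ± 143 in fresh ones. These sums are on another scale than the count shares, and in TPM the median of all genes is also lower after culture (values below).

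Start regions of 52 of the 68 genes were found in RefSeq (GRCm38.p6) and searched for 3 short motifs, because many factors are known to have messengers that begin with a pyrimidine tract and because E-boxes (CACGTG) are known from promoters of translation genes. A run of at least 7 C or T letters on the transcribed strand, from 35 bases before to 30 bases after the annotated start, was present in 23 of the 52 (44.2%), against 39.5% of 17491 protein-coding genes. CACGTG, which reads the same on both strands, was present in the 300 bases around the start of 13 members (25%), against 8.91% of protein-coding genes, and CCGGAAGT, a motif of ETS factors searched on both strands, in 9 (17.3%), against 5.69%. A match is a description of the letters only. Where RefSeq gave a gene several starts, all were searched, and that with the lowest coordinate is shown. The regions of 4 members from the elongation factors, eIF3 and eIF2 are shown for their pyrimidine run, in capitals. Each reads 5′ to 3′ from 35 bases before to 30 bases after the start.
Eef2: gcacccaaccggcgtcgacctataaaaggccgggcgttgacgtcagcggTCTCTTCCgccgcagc
Eif3f: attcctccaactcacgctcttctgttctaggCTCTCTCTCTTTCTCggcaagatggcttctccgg
Eif2s3x: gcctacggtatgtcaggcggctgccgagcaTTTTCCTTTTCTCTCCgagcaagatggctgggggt
Eif2s3y: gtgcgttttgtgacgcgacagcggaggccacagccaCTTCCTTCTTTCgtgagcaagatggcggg
They lie in GRCm38.p6 at chr10:81176596-81176660 (plus strand), chr7:108934380-108934444 (plus), chrX:94212622-94212686 (minus) and chrY:1010560-1010624 (plus), and the runs are 8, 15, 16 and 12 bases long. Eif3a and Eif4g1, large subunits of eIF3 and eIF4F, are shown for CACGTG in capitals, at chr19:60790664-60790728 (minus) and chr16:20672692-20672756 (plus). The motif starts 23 and 16 bases into the region that follows the RefSeq start used. In GENCODE the Eif3a gene spans 60761117 to 60790658, outside the region shown. There Eif4g1 spans 20668313 to 20692884, so its region lies inside the gene.
Eif3a: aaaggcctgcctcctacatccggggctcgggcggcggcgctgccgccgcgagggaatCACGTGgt
Eif4g1: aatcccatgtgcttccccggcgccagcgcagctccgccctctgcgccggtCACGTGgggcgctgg

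The study asked how naive CD4+ T cells differ after culture with IL-1b, and the direct comparison is IL-1b-treated against cultured cells. With IL-1b, more factors were higher than lower: 28 of the 65 rose and 8 fell, and 29 did not pass the test (edgeR quasi-likelihood, Benjamini-Hochberg adjusted p under 0.05 over all genes tested). Of all genes tested, 15.6% rose and 13.3% fell, 28.9% in all. The median log2 fold change was 0.12 over the factors and -0.01 over all genes. Without IL-1b, culture itself was followed by a wider change: 32 of 65 factors rose and 12 fell in cultured against fresh cells, where 29.4% of all genes rose and 28.9% fell, 58.2% in all. The median of that log2 fold change was 0.18 over the factors and 0.00 over all genes.

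These directions depend on the scale. Fold changes here are on TMM-normalised counts. On log2(TPM + 1), the median of all genes shifts by -0.25 in IL-1b-treated against cultured and by -0.19 in cultured against fresh cells. The median over the factors shifts by -0.17 and -0.09 there. On that scale 4 factors were called higher and 26 lower with IL-1b, and 18 higher and 24 lower after culture. Of all 13043 genes, 289 were called higher and 4452 lower with IL-1b on that scale, and 1877 and 4842 after culture. With library size as the only scaling, the median of all genes shifted by -0.12 in the comparison with IL-1b. In all 7 other scalings tried (RLE, upper quartile, library size alone, log2(TPM + 1), log2(TPM + 0.1), effective length as an offset, and a correction that takes out the trend of every library with GC content and length, called GC-length correction below), 19 of the 28 factors higher with IL-1b and 8 of the 8 lower kept their sign. Those called under every scaling were Eef1e1, Eif3e, Eif3k and Eif3m, all higher, and Eif3f, lower. After culture, 25 of 32 higher and 9 of 12 lower factors kept their sign, and 16 and 6 of them were called under every scaling.

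**Figure D1:**
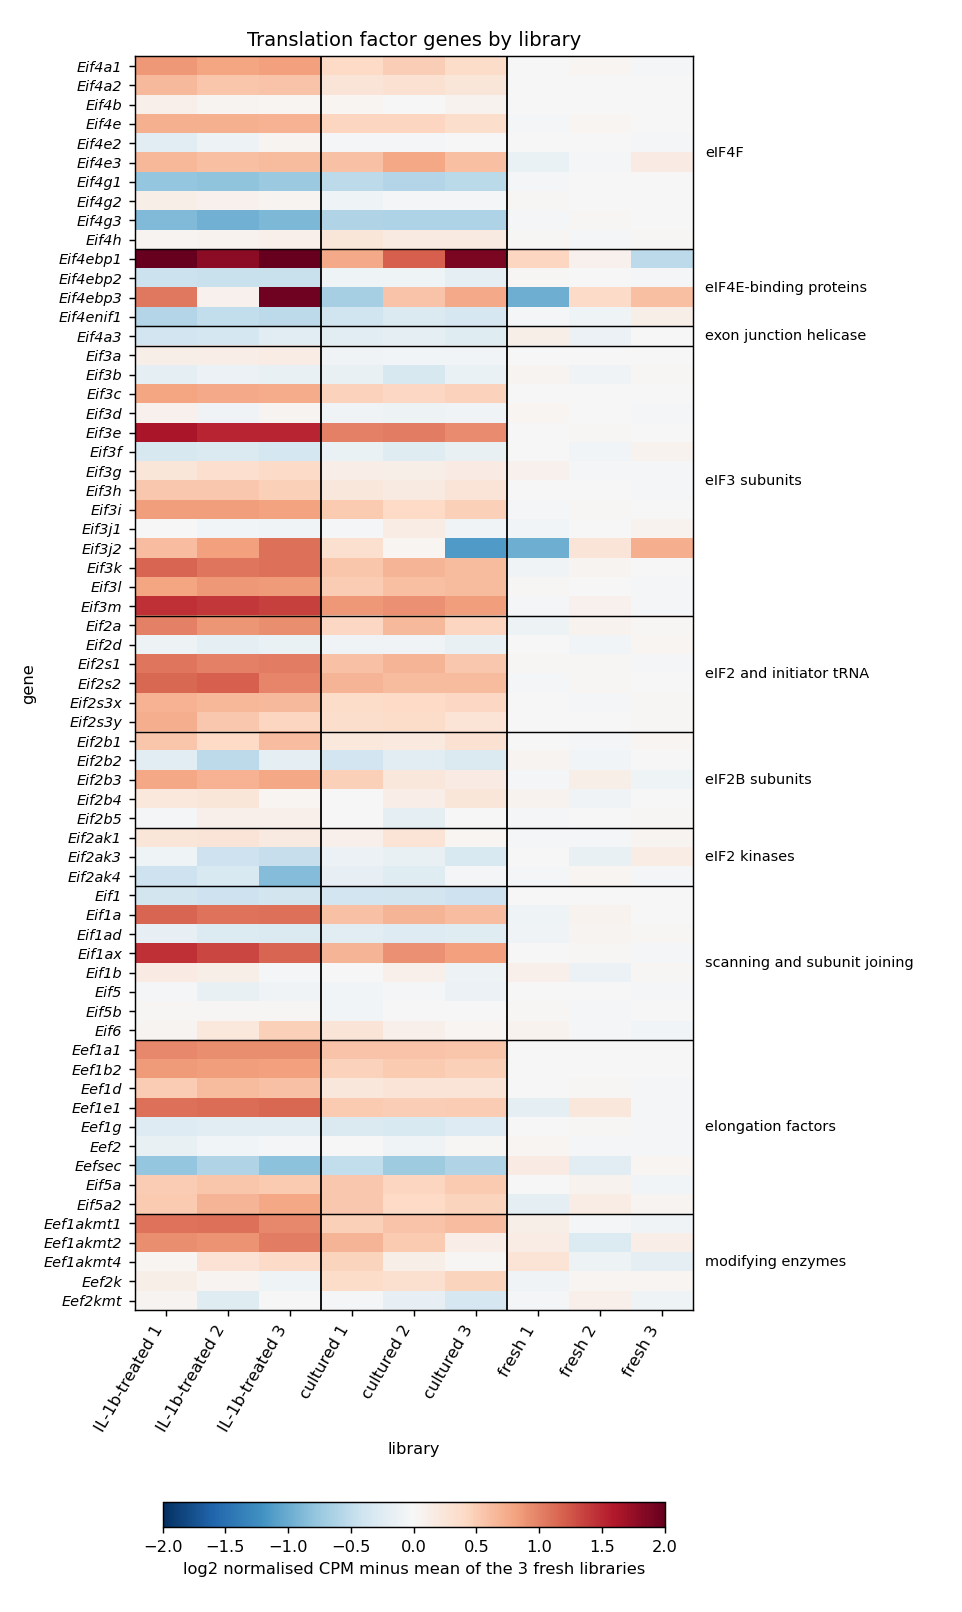
Heat map of the 65 tested factor genes (rows, by role) in 9 libraries (columns), coloured by log2 TMM-normalised CPM minus the mean of the 3 fresh libraries. Eif3e and Eif3m are red in the IL-1b-treated libraries and paler in the cultured libraries (log2 fold changes of 0.57 and 0.54 between these groups), Eif4ebp1 is darker still in the IL-1b-treated libraries, and Eif4g1 and Eif4g3 are blue in both.

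In the cap-binding complex eIF4F, the scaffold genes Eif4g1 and Eif4g3 fell while Eif4a1 and Eif4e rose on counts. With IL-1b, 4 of 10 tested genes of this group rose and 3 fell, and after culture 5 rose and 2 fell. That is 70% called in each comparison, against 28.9% and 58.2% of all genes tested. Eif4g1 (ENSMUSG00000045983), the main scaffold that bridges the cap-binding protein and eIF3, had 302, 295 and 309 normalised CPM in IL-1b-treated, 357, 342 and 354 in cultured, and 506, 519 and 521 in fresh libraries. The 3 groups did not overlap, with the IL-1b-treated libraries lowest and the fresh libraries highest. Its log2 fold change was -0.22 ± 0.032 (SE, adjusted p = 1.56e-05) with IL-1b and -0.55 ± 0.031 (adjusted p = 5.08e-13) after culture. It was below 0 under all 7 other scalings, at -0.64 to -0.01 and -0.61 to -0.20, and the value of -0.01, after GC-length correction, did not pass the test. The sister scaffold gene Eif4g3 had 155, 147 and 154 normalised CPM in IL-1b-treated, 189, 187 and 187 in cultured, and 281, 291 and 290 in fresh libraries, again with no overlap. Its log2 fold changes were -0.30 ± 0.037 (adjusted p = 1.7e-06) and -0.61 ± 0.036 (adjusted p = 1.08e-12), and the value with IL-1b was -0.06 and not called after GC-length correction.

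A further relative, Eif4g2, which lacks the cap-binding protein's docking site and serves cap-independent initiation, did not follow the other scaffolds. It had 1054, 1033 and 1006 normalised CPM in IL-1b-treated, 917, 961 and 950 in cultured, and 986, 966 and 968 in fresh libraries. It was higher with IL-1b on this scale (log2 fold change 0.13 ± 0.027, adjusted p = 0.000703), but -0.14 on log2(TPM + 1), and did not pass the test after culture (-0.05, adjusted p = 0.144). Per length, the Eif4g1 level was 0.253 ± 0.028 of the Eif4g2 level in IL-1b-treated libraries, 0.356 ± 0.019 in cultured ones and 0.413 ± 0.016 in fresh ones (ratio of TPM within a library, SD, n = 3 each), and these ratios did not overlap between the groups.

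Eif4a1, the helicase that unwinds messenger ends, had 832, 793 and 813 normalised CPM in IL-1b-treated, 603, 643 and 594 in cultured, and 459, 470 and 448 in fresh libraries, with no overlap. Its log2 fold changes were 0.41 ± 0.032 (adjusted p = 1.84e-09) with IL-1b and 0.42 ± 0.032 (adjusted p = 1.52e-10) after culture, and 0.05 to 0.40 and 0.26 to 0.51 across the other scalings. On both log2(TPM) scales the Eif4a1 call with IL-1b was lost. Its close paralog Eif4a2 rose by 0.32 and 0.27 (adjusted p = 5.99e-09 and 1.01e-08), but was at -0.02 and -0.03 on log2(TPM + 1). The TPM of Eif4a1 was 0.790 ± 0.046 of that of Eif4a2 in IL-1b-treated libraries, 0.748 ± 0.037 in cultured ones and 0.610 ± 0.029 in fresh ones, where the ratios of the cultured groups lay above those of the fresh group and overlapped each other. Eif4e, which encodes the cap-binding protein, had 84.6, 84.4 and 83.7 normalised CPM in IL-1b-treated, 69.6, 69.2 and 65.6 in cultured, and 50.1, 53.0 and 51.3 in fresh libraries. It rose by 0.31 ± 0.056 with IL-1b (adjusted p = 0.000196) and by 0.41 ± 0.057 after culture (adjusted p = 2e-06). Across the other scalings the values were 0.01 to 0.32 and -0.01 to 0.55, with -0.01 after GC-length correction. The Eif4e call with IL-1b was lost on both log2(TPM) scales, with effective length as an offset and after GC-length correction.

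Eif4e3, another cap-binding relative, rose after culture (0.66 ± 0.096, adjusted p = 3e-06, and 0.39 to 0.66 across the other scalings) and did not pass the test with IL-1b (-0.03, adjusted p = 0.88). Eif4h, a helper of the helicase, fell with IL-1b (-0.13, adjusted p = 0.0137, and -0.48 to -0.05 elsewhere) and rose after culture (0.20, adjusted p = 6.41e-05, and 0.01 to 0.38 elsewhere). Without the first cultured library the adjusted p of the Eif4h value with IL-1b was 0.0919. Eif4b, the other helicase helper, was at 0.02 (adjusted p = 0.599) and 0.04 (adjusted p = 0.19), and Eif4e2, which encodes a weak cap binder, at -0.06 and -0.03, none past the threshold.

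Of the 4 genes for proteins that bind eIF4E and keep it from the scaffold, 2 fell and none rose with IL-1b, and after culture 2 fell and 1 rose. These are 50% and 75% called, against 28.9% and 58.2% of all genes. Eif4ebp2 had 373, 368 and 370 normalised CPM in IL-1b-treated, 474, 472 and 444 in cultured, and 510, 503 and 494 in fresh libraries. The groups did not overlap, and the log2 fold changes were -0.32 ± 0.032 with IL-1b (adjusted p = 5.79e-08) and -0.12 ± 0.031 after culture (adjusted p = 0.00242). After GC-length correction these were -0.06 and 0.26, so the direction after culture depends on that choice. The TPM of Eif4e was 1.5 ± 0.16 times that of Eif4ebp2 in IL-1b-treated libraries, 0.954 ± 0.14 in cultured ones and 0.607 ± 0.030 in fresh ones, with no overlap between the groups. After GC-length correction Eif4e stood at -0.01 and Eif4ebp2 at 0.26 in cultured against fresh cells. The rise of this ratio after culture therefore depends on that choice too.

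Eif4ebp1, the best-known mTOR target of this family, was much lower than Eif4ebp2. It had 9.92, 8.33 and 10.7 normalised CPM in IL-1b-treated, 4.11, 5.51 and 8.90 in cultured, and 3.27, 2.55 and 1.69 in fresh libraries. Here the third cultured library lay above the lowest IL-1b-treated library, while both cultured groups lay above the fresh group. Its log2 fold change after culture was 1.27 ± 0.27 (adjusted p = 0.000334, and 0.84 to 1.33 across the other scalings), the largest rise among the factors in that comparison. With IL-1b it was 0.64 ± 0.25 and did not pass the test (adjusted p = 0.0558), but without the third cultured library, or without the first or the third fresh library, it did, the lowest adjusted p being 0.00785. Eif4enif1, which encodes a shuttling partner of eIF4E, fell in both comparisons (-0.20 ± 0.063, adjusted p = 0.0199, and -0.34 ± 0.061, adjusted p = 5.03e-05), and the call with IL-1b was lost without the first IL-1b-treated or the second or the third cultured library, at an adjusted p of up to 0.0915. Eif4ebp3 had between 0.992 and 7.51 normalised CPM with overlapping groups and passed in neither.

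**Figure D2:**
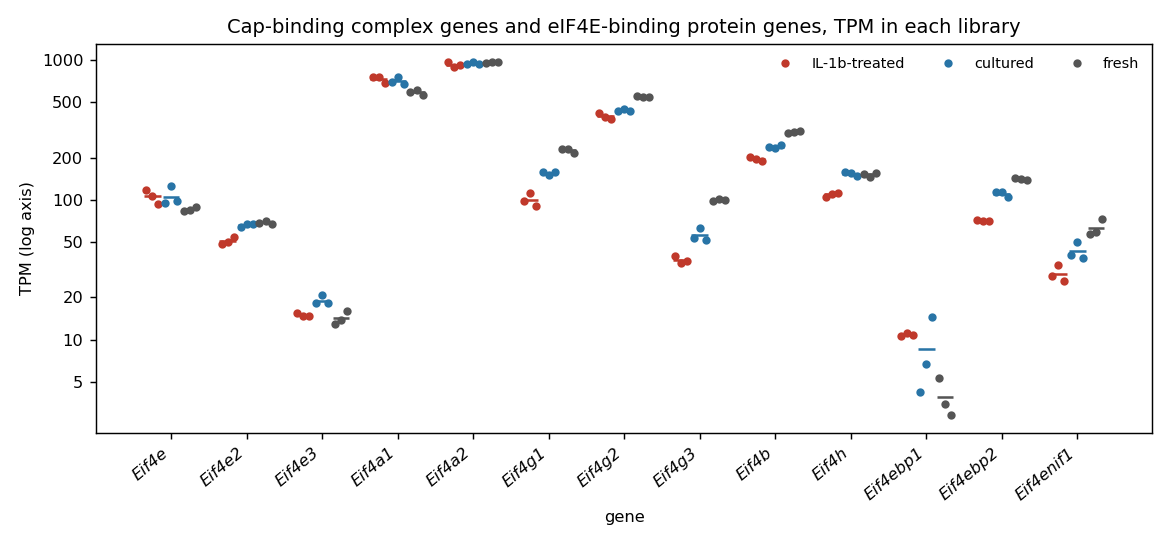
TPM (log axis) of the cap-binding complex genes and 3 eIF4E-binding protein genes, with a point for each of the 3 libraries of a group and a bar at the group mean. Eif4g1, Eif4g3 and Eif4ebp2 step up towards the fresh libraries, while Eif4a1 is lowest there (587 TPM on average).

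The eIF3 genes moved apart. Of 14 tested, 9 rose and 1 fell with IL-1b, and 8 rose and 2 fell after culture. That is 71.4% called in each, against 28.9% and 58.2% of all genes. The medians were 0.28 and 0.18 on counts and -0.05 and -0.09 on log2(TPM + 0.5). Eif3e (ENSMUSG00000022336, mm10 chromosome 15), a subunit that is known to contact other initiation factors, had the largest change among those that passed the test (Eif3j2, at few counts, was at 0.99 with IL-1b and did not pass). It had 713, 656 and 657 normalised CPM in IL-1b-treated, 462, 465 and 443 in cultured, and 227, 233 and 227 in fresh libraries, so that the lowest library of each group lay well above the highest of the next. The log2 fold changes were 0.57 ± 0.034 (adjusted p = 1.53e-11) with IL-1b and 1.00 ± 0.035 (adjusted p = 1.22e-16) after culture, and 0.25 to 0.56 and 0.68 to 1.01 across the other scalings.

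Eif3m (ENSMUSG00000027170, mm10 chromosome 2), a subunit with the same PCI fold as Eif3e, had 328, 317 and 308 normalised CPM in IL-1b-treated, 216, 225 and 213 in cultured, and 115, 126 and 115 in fresh libraries. It followed Eif3e with no overlap, at 0.54 ± 0.041 (adjusted p = 7.41e-10) and 0.88 ± 0.042 (adjusted p = 3.49e-14). Eif3k, a small subunit, had 248, 232 and 237 normalised CPM in IL-1b-treated, 162, 179 and 172 in cultured, and 106, 116 and 112 in fresh libraries. It rose by 0.48 ± 0.044 (adjusted p = 2.33e-08) and 0.63 ± 0.046 (adjusted p = 6.33e-11), and neither gene went below 0.15 with IL-1b or 0.36 after culture under any other scaling.

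Eif3f, whose protein pairs with Eif3h in the MPN dimer of the complex, went against them. It had 228, 231 and 223 normalised CPM in IL-1b-treated, 258, 241 and 256 in cultured, and 282, 273 and 298 in fresh libraries. No libraries overlapped, and the changes were small: -0.15 ± 0.039 (adjusted p = 0.0064) and -0.17 ± 0.038 (adjusted p = 0.000473), and -0.47 to -0.12 and -0.39 to -0.11 across the other scalings. Its partner Eif3h rose by 0.30 and 0.22 (adjusted p = 2.21e-07 and 3.52e-06) on counts but was at -0.03 and -0.05 on the TPM scale. Eif3a, a large subunit, was higher with IL-1b at 0.19 (adjusted p = 1.24e-05) but at -0.22 on log2(TPM + 1), and did not pass the test after culture (-0.06, adjusted p = 0.0633). Eif3b, which carries the RNA-recognition arm, fell after culture (-0.20, adjusted p = 0.00087), although it was at 0.05 after GC-length correction, and did not pass the test with IL-1b (0.05, adjusted p = 0.493). Eif3c, Eif3i and Eif3l rose in both comparisons on counts, by 0.26 to 0.36 with IL-1b and by 0.45 to 0.58 after culture. On the TPM scale Eif3c and Eif3l were at -0.04 and -0.06 with IL-1b, and the Eif3i call with IL-1b was lost.

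Of the other subunits, Eif3g rose by 0.18 and 0.14 (adjusted p = 0.0106 and 0.0251) but was at -0.15 and -0.12 on the TPM scale, and leaving out the third IL-1b-treated library ended the call with IL-1b (adjusted p = 0.057), and leaving out the third cultured, the second fresh or the third fresh library ended that after culture (adjusted p up to 0.101). Eif3d, which can bind caps itself, was at 0.11 and -0.08 and passed in neither comparison. Eif3j1 and its near-identical copy Eif3j2, whose reads cannot be cleanly told apart, did not pass either, and their summed counts gave -0.02 and 0.01.

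Per length, the 12 subunit genes without Eif3j1 and Eif3j2 were less even after culture. Within a library, the highest of them had 7.87 to 8.92 times the TPM of the lowest in IL-1b-treated, 5.31 to 6.41 times in cultured and 3.69 to 4.10 times in fresh libraries, with no overlap between the groups. Eif3b was lowest in all 9 libraries, with 67.4 ± 1.3 TPM in IL-1b-treated libraries, 81.2 ± 5.7 in cultured ones and 111 ± 6.2 in fresh ones (SD, n = 3 each). Eif3e was highest in the 6 IL-1b-treated and cultured libraries, with 557 ± 28 and 470 ± 14 TPM, and Eif3h in the 3 fresh libraries, with 428 ± 1.7 TPM. The TPM of Eif3m was 2.69 ± 0.071 times that of Eif3f in IL-1b-treated libraries, 1.66 ± 0.077 times in cultured ones and 0.819 ± 0.059 times in fresh ones.

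**Figure D3:**
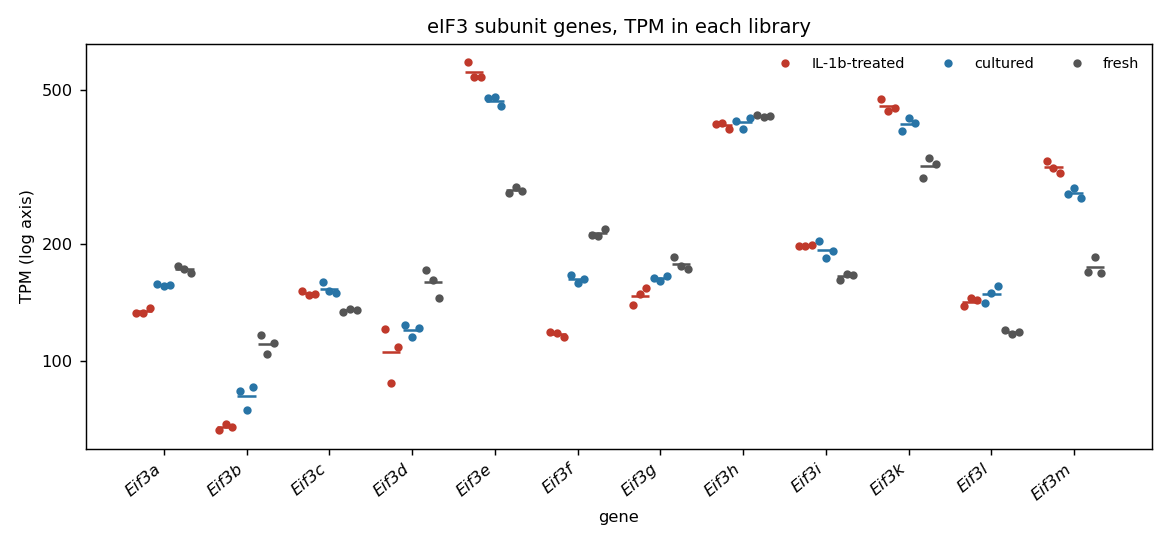
TPM (log axis) of 12 eIF3 subunit genes, with a point for each of the 3 libraries of a group and a bar at the group mean. Eif3e, Eif3k and Eif3m are highest in IL-1b-treated and lowest in fresh libraries, while Eif3b, Eif3d and Eif3f run the other way on average (Eif3e averages 557, 470 and 276 TPM in IL-1b-treated, cultured and fresh libraries).

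The genes of eIF2, the GTPase that brings the initiator tRNA, rose together on counts. Of 6 genes in this group, which also holds Eif2a and Eif2d, no subunits of eIF2, 5 rose and none fell in each comparison. That is 83.3% called in each, against 28.9% and 58.2% of all genes. Eif2s1, the subunit that stress kinases phosphorylate, had 143, 137 and 138 normalised CPM in IL-1b-treated, 103, 110 and 99.1 in cultured, and 69.4, 69.3 and 66.1 in fresh libraries. It rose by 0.43 ± 0.049 (adjusted p = 6.06e-07) with IL-1b and by 0.60 ± 0.051 (adjusted p = 7.58e-10) after culture, with no overlap of groups, and by 0.06 to 0.42 and 0.42 to 0.94 across the other scalings. Eif2s2 rose by 0.46 ± 0.050 (adjusted p = 2.45e-07) and 0.65 ± 0.052 (adjusted p = 2.99e-10), and Eif2a, an alternative carrier of initiator tRNA, by 0.44 and 0.50 (adjusted p = 3.63e-05 and 3e-06). The calls of Eif2s1, Eif2s2 and Eif2a with IL-1b were lost on both log2(TPM) scales.

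The X-linked Eif2s3x and the Y-linked Eif2s3y, near-identical genes for the subunit that binds GTP and the tRNA, moved alike. Eif2s3x rose by 0.27 with IL-1b and 0.39 after culture (adjusted p = 2.17e-06 and 1.68e-09), and Eif2s3y by 0.24 and 0.34 (adjusted p = 0.0036 and 5.08e-05), but with IL-1b both were below 0 on the TPM scale (-0.03 and -0.11). Because their reads may be shared, their counts were also summed, which gave 0.26 and 0.38. Eif2d, a factor for non-canonical initiation and recycling, was at -0.05 and -0.09 and passed in neither comparison.

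Of the 5 genes for eIF2B, which recharges eIF2 with GTP, 2 rose and none fell with IL-1b, and 2 rose and 1 fell after culture. The shares called, 40% and 60%, stand beside 28.9% and 58.2% of all genes, so that after culture is near the general share. Eif2b3, one of the catalytic-core subunits, rose by 0.46 ± 0.11 (adjusted p = 0.00353) and 0.29 ± 0.12 (adjusted p = 0.0342), and Eif2b1, a regulatory subunit, by 0.29 and 0.24 (adjusted p = 0.0166 and 0.0308), the value after culture being -0.18 on log2(TPM + 1). Leaving out 1 library ended these calls in 3 cases for each of Eif2b3 after culture and Eif2b1 with IL-1b, and in 4 for Eif2b1 after culture, with adjusted p-values up to 0.188. The calls of Eif2b1 and Eif2b3 were lost in both comparisons on both log2(TPM) scales. Eif2b2, another regulatory subunit, fell after culture, at -0.30 ± 0.088 (adjusted p = 0.00566), with 32.3, 36.3 and 34.6 normalised CPM in cultured against 43.9, 40.9 and 42.3 in fresh libraries. Eif2b4 and Eif2b5 passed in neither comparison.

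Of the kinases that phosphorylate eIF2 under stress, 3 are described. Eif2ak4, the sensor of amino acid shortage known as Gcn2, had 15.9, 17.2 and 11.7 normalised CPM in IL-1b-treated, 18.9, 17.9 and 20.7 in cultured, and 21, 21.9 and 21 in fresh libraries. It was lower with IL-1b (-0.36 ± 0.13, adjusted p = 0.0345), a call that was lost without the third IL-1b-treated, the first cultured or the third cultured library, at adjusted p-values up to 0.203. Eif2ak3, the endoplasmic reticulum sensor PERK, was at -0.12 and -0.19 (adjusted p = 0.408 and 0.111), and Eif2ak1, the heme-regulated kinase, at 0.08 and 0.15 (adjusted p = 0.387 and 0.0607).

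Among the 8 genes for scanning and subunit joining, 2 rose and none fell with IL-1b, and 2 rose and 2 fell after culture. The shares called, 25% and 50%, were below the 28.9% and 58.2% of all genes. The 2 that rose were Eif1ax and Eif1a, near-identical genes for a factor that keeps the ribosome open while it scans. Eif1ax had 132, 122 and 108 normalised CPM in IL-1b-treated, 77.2, 91.1 and 85.6 in cultured, and 48.5, 49.1 and 47.1 in fresh libraries. Eif1a had 75.3, 71.8 and 72.1 normalised CPM in IL-1b-treated, 50.8, 53.8 and 51.6 in cultured, and 31.9, 35.4 and 34.0 in fresh libraries. Neither gene had overlapping groups on this scale, but in TPM the cultured and fresh libraries of Eif1ax overlapped. Eif1ax rose by 0.51 ± 0.067 (adjusted p = 3.88e-06) and 0.81 ± 0.071 (adjusted p = 1.34e-09), Eif1a by 0.49 ± 0.064 (adjusted p = 3.92e-06) and 0.63 ± 0.067 (adjusted p = 3.39e-08), and their summed counts by 0.50 and 0.74. Across the other scalings Eif1ax was at 0.40 to 0.85 and 0.48 to 0.83, and Eif1a at 0.17 to 0.48 and 0.36 to 0.63. On both log2(TPM) scales the Eif1ax calls in both comparisons and the Eif1a call with IL-1b were lost.

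Eif1, the partner of these factors that guards start codon choice, behaved otherwise. It had 219, 214 and 221 normalised CPM in IL-1b-treated, 217, 219 and 213 in cultured, and 287, 282 and 282 in fresh libraries. Both cultured groups lay below the fresh libraries and overlapped each other: Eif1 fell after culture (log2 fold change -0.39 ± 0.033, adjusted p = 8.43e-10, and -0.71 to -0.39 across the other scalings), and did not pass the test with IL-1b (0.01, adjusted p = 0.866). Eif1ad, a little-studied relative of Eif1a, fell after culture (-0.24 ± 0.072, adjusted p = 0.00595), but was at 0.04 after GC-length correction. Eif5, which triggers GTP hydrolysis by eIF2, was at -0.02 and -0.06, Eif5b, which joins the subunits, at 0.05 and -0.02, Eif6, which keeps the large subunit apart, at 0.12 and 0.13, and Eif1b at 0.09 and -0.01, and none of these 8 values passed the test.

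Among 9 tested genes grouped as elongation factors, Eef1e1 of the tRNA synthetase complex included, 4 rose and none fell with IL-1b. After culture 6 rose and 2 fell. These are 44.4% and 88.9% called, against 28.9% and 58.2% of all genes. Eef1a1 had 23231, 22832 and 22944 normalised CPM in IL-1b-treated, 17761, 17891 and 17665 in cultured, and 11936, 11936 and 12119 in fresh libraries. It rose by 0.37 ± 0.014 (adjusted p = 8.36e-15) and 0.57 ± 0.014 (adjusted p = 3.87e-19), with no overlap of groups, and by 0.05 to 0.36 and 0.32 to 0.57 across the other scalings. Of the exchange factor that reloads Eef1a1 with GTP, the catalytic genes Eef1b2 and Eef1d rose, by 0.35 ± 0.025 and 0.33 ± 0.037 with IL-1b (adjusted p = 4.7e-10 and 5.5e-07) and by 0.48 ± 0.026 and 0.25 ± 0.038 after culture (adjusted p = 1.88e-13 and 6.01e-06). Across the other scalings they were at 0.03 to 0.34 and 0.02 to 0.33 with IL-1b, and at 0.17 to 0.49 and 0.04 to 0.29 after culture. On the log2(TPM) scales the calls of Eef1a1, Eef1b2 and Eef1d with IL-1b, and that of Eef1d after culture, were lost.

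Eef1g, the structural subunit of the same exchange complex, did not. It had 735, 763 and 757 normalised CPM in IL-1b-treated, 720, 712 and 737 in cultured, and 887, 891 and 864 in fresh libraries, so the fresh libraries stood above the rest. Eef1g fell after culture (-0.28 ± 0.027, adjusted p = 4.66e-09, and -0.52 to -0.20 across the other scalings) and did not pass the test with IL-1b (0.06, adjusted p = 0.136), although it did without the first IL-1b-treated library (adjusted p = 0.0469). The TPM of Eef1b2 was 4.21 ± 0.10 times that of Eef1g in IL-1b-treated libraries, 3.42 ± 0.097 times in cultured ones and 2.03 ± 0.024 times in fresh ones, with no overlap.

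Eef2, the translocase that moves the ribosome by a codon, had 4158, 4414 and 4465 normalised CPM in IL-1b-treated, 4552, 4382 and 4685 in cultured, and 4707, 4542 and 4540 in fresh libraries, and the groups overlapped. Its log2 fold changes were -0.06 (adjusted p = 0.0789) and -0.02 (adjusted p = 0.582), and without the second cultured library the value with IL-1b passed the test (adjusted p = 0.0256). The scale decided its direction, since the 2 values were 0.13 and 0.37 after GC-length correction and both below 0 in TPM. Per length, Eef1a1 stood at 10.3 ± 0.51 times Eef2 in IL-1b-treated libraries, 7.64 ± 0.25 times in cultured ones and 5.06 ± 0.18 times in fresh ones, with no overlap between the groups.

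Eef1e1, an auxiliary protein of the tRNA synthetase complex, had the largest called rise with IL-1b. It had 39.7 to 41.1 normalised CPM in the 3 IL-1b-treated libraries, 26.5, 25.9 and 26.2 in cultured, and 16.2, 21.7 and 18.0 in fresh libraries, with no overlap, and rose by 0.62 ± 0.097 (adjusted p = 3.96e-05) and 0.50 ± 0.10 (adjusted p = 0.00021). Across the other scalings its values lay between 0.44 and 0.84 with IL-1b and between 0.13 and 0.50 after culture. Eif5a, which eases the joining of difficult amino acids such as proline runs and carries the modified residue hypusine, rose after culture (0.49 ± 0.037, adjusted p = 7.84e-11) and did not pass the test with IL-1b (0.03, adjusted p = 0.558). Its paralog Eif5a2 rose after culture too (0.46 ± 0.13, adjusted p = 0.00486). Eefsec, which delivers selenocysteine, had 22.7, 25.5 and 21.9 normalised CPM in IL-1b-treated, 27.4, 23.6 and 25.6 in cultured, and 43.4, 33.4 and 39.8 in fresh libraries, and fell after culture (-0.61 ± 0.10, adjusted p = 2.06e-05, and -1.01 to -0.30 across the other scalings).

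Of 5 tested genes for enzymes that modify elongation factors, 2 rose and 1 fell with IL-1b, and 3 rose and none fell after culture. The share called was 60% in each, against 28.9% and 58.2% of all genes, so that after culture is near the general share. Eef1akmt1, a lysine methyltransferase of Eef1a1, rose in both comparisons (0.50 ± 0.11, adjusted p = 0.00139, and 0.54 ± 0.12, adjusted p = 0.000309). Its call with IL-1b was lost on both log2(TPM) scales, and that after culture was lost after GC-length correction. Eef2k, the kinase that switches Eef2 off, had 17.4, 16.6 and 15.2 normalised CPM in IL-1b-treated, 20.7, 19.9 and 21.8 in cultured, and 15.3, 16.4 and 16.5 in fresh libraries. It was lower with IL-1b (-0.34 ± 0.11, adjusted p = 0.0175) and higher after culture (0.38 ± 0.11, adjusted p = 0.00371), where its direction turned on the TPM scale (-0.41 on log2(TPM + 1)) and with effective length as an offset (-0.20). The mean effective length that RSEM gave Eef2k was 2655 bases in IL-1b-treated libraries, 2709 in cultured ones and 1802 in fresh ones. The call with IL-1b was lost without the third IL-1b-treated or the third cultured library, at an adjusted p of up to 0.0733. Eef1akmt2 rose by 0.49 and 0.44 (adjusted p = 0.016 and 0.0173), but leaving out 1 library ended the call in 2 and 3 of 9 cases (adjusted p up to 0.115) and the value after culture was -0.02 after GC-length correction, and Eef2kmt and Eef1akmt4 passed in neither comparison. Eif4a3, a helicase relative of the exon junction complex, fell after culture (-0.23 ± 0.060, adjusted p = 0.00225) and was at -0.10 with IL-1b (adjusted p = 0.264).

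In IL-1b-treated against fresh cells, 36 of 65 factors rose and 15 fell, where 32.9% of all genes rose and 32.6% fell, 65.5% in all. This comparison shares its libraries with the other 2, so its values are given beside them only for the genes at either end. Eif4ebp1 stood at 1.91 ± 0.27 (adjusted p = 1.27e-06), Eif3e at 1.56 ± 0.035 (adjusted p = 1.81e-20), Eif3m at 1.42 ± 0.042 (adjusted p = 2.48e-18), Eif1ax at 1.32 ± 0.070 (adjusted p = 1.06e-13) and Eif1a at 1.12 ± 0.066 (adjusted p = 8.06e-13). At the other end, Eif4g3 stood at -0.91 ± 0.036 (adjusted p = 5.92e-16), Eif4g1 at -0.77 ± 0.031 (adjusted p = 8.57e-16), Eefsec at -0.74 ± 0.10 (adjusted p = 1.32e-06), Eif4enif1 at -0.54 ± 0.062 (adjusted p = 7.16e-08) and Eif2ak4 at -0.51 ± 0.12 (adjusted p = 0.00102). None of these 10 changed sign under any of the 7 other scalings. On log2(TPM + 1), where the median of all genes shifts by -0.45, 19 factors were called higher and 32 lower. Of all 13043 genes, 1527 were called higher and 7113 lower on that scale.

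The direction of a factor went with the length and the GC content of its messenger. With IL-1b, 9 of 15 factors with an effective length under 1000 bases rose and none fell, 12 of 22 between 1000 and 2000 bases rose and 1 fell, and 7 of 28 over 2000 bases rose and 7 fell. All genes tested did likewise, with 32.2% higher and 1.62% lower under 1000 bases, 19.0% and 5.55% between, and 7.56% and 22.2% over 2000 bases. After culture, 10 of 15 short factors rose and 2 fell, against 8 and 7 of the 28 long ones, where of all genes 39.0% rose and 12.5% fell under 1000 bases, and 25.2% and 36.8% over 2000 bases. Across the 65 factors, Spearman's rho between effective length and log2 fold change was -0.46 with IL-1b and -0.29 after culture, and between GC content and log2 fold change -0.48 and -0.43, a description over genes that share the same libraries. After GC-length correction, 34 factors were called higher and 2 lower with IL-1b, and 32 and 12 after culture. Of all 13043 genes, 2024 were called higher and 556 lower with IL-1b after that correction, and 3847 and 3216 after culture. The part of length and GC content in the values was not tested further.

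**Figure D4:**
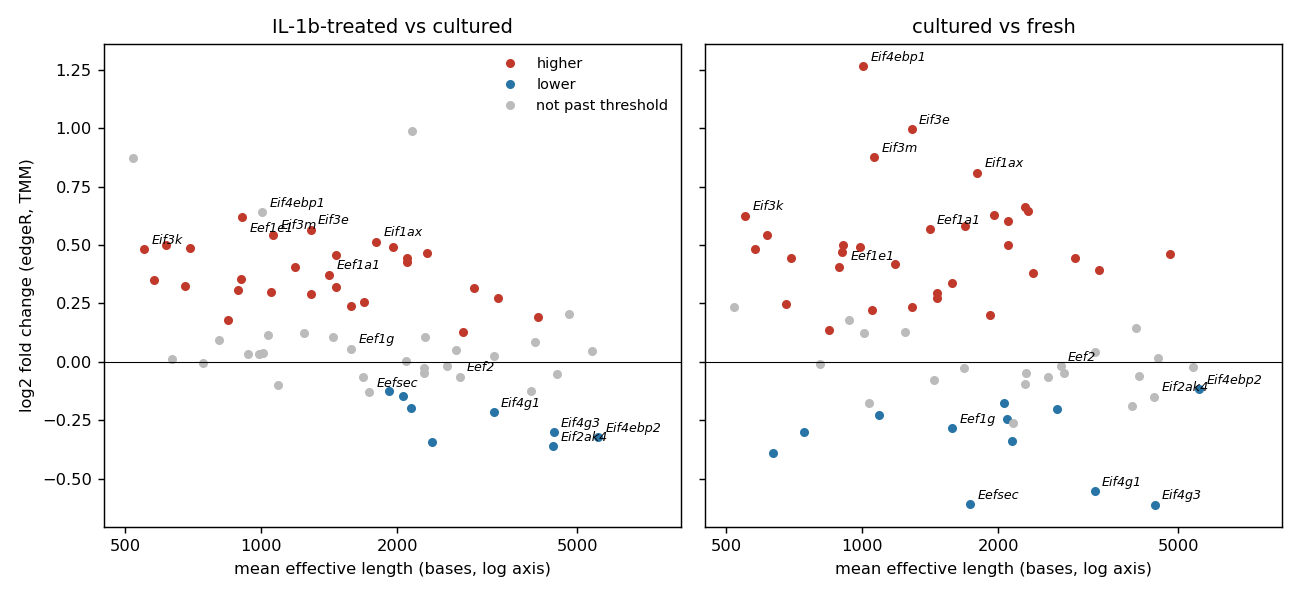
Log2 fold change (edgeR, TMM) of the 65 tested factors against mean effective length in bases (log axis), for IL-1b-treated against cultured cells on the left and cultured against fresh cells on the right, coloured by the call. Eif3k, Eif3m and Eef1e1 rise among the shorter messengers, and Eif4g1, Eif4g3 and Eif4ebp2 fall among the longer, while Eif1ax rises (0.51 and 0.81) at a middle length.

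Genes known for messengers with a terminal oligopyrimidine tract (12 of the factors, 11 tested) were not uniform on counts. With IL-1b 7 rose and 1 fell, and 6 rose and 2 fell after culture, with medians of 0.27 and 0.22. Of all genes tested, 15.6% rose and 13.3% fell with IL-1b, and 29.4% and 28.9% after culture. After GC-length correction 10 were higher and 1 lower with IL-1b, and 8 were higher and 3 lower after culture. The 23 factors with a pyrimidine run at the RefSeq start gave 9 higher and 6 lower of 22 tested with IL-1b, and 10 and 7 after culture, and the 13 with CACGTG gave 4 and 4, and 7 and 2. Of the printed genes, Eif3f, Eif2s3x and Eif2s3y all carry the run, and Eif3f fell while Eif2s3x and Eif2s3y rose on counts (below 0 on the TPM scale with IL-1b).

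Genes that work with the factors were counted in the same way. Of 25 genes for cap, poly(A) and mTOR-linked regulators, 4 rose and 9 fell with IL-1b and 8 rose and 11 fell after culture. After GC-length correction the balance turned, to 5 higher and 1 lower with IL-1b and 11 higher and 8 lower after culture. Paip2, an inhibitor of poly(A)-binding protein, rose in both (0.37 and 0.81, adjusted p = 2.88e-06 and 1.95e-12), Larp1, a repressor of oligopyrimidine messengers, fell with IL-1b (-0.37, adjusted p = 5.03e-08), and Mtor fell after culture (-0.63, adjusted p = 2.74e-08). Of 10 genes for eIF2 phosphatases and partners of Gcn2, 4 rose and 2 fell with IL-1b and 3 rose and 5 fell after culture. Ppp1r15a, the stress-induced phosphatase subunit, had a mean of 24.4 normalised CPM in cultured against 167 in fresh cells (-2.77 ± 0.068, adjusted p = 1.73e-19), and Gcn1l1, the partner of Gcn2, fell with IL-1b (-0.41, adjusted p = 2.02e-07).

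Of 22 cytosolic tRNA synthetase genes, 11 rose and 2 fell with IL-1b and 10 rose and 7 fell after culture. Aimp1, a scaffold of the synthetase complex that holds Eef1e1, rose in both (0.46 and 0.69, adjusted p = 1.58e-06 and 8.59e-10), while Vars, the valine enzyme, fell in both (-0.29 and -1.02, adjusted p = 0.00157 and 2.33e-12). Of 8 termination and recycling genes, 2 rose and none fell with IL-1b and 3 rose and 2 fell after culture, with Abce1, the recycling ATPase, higher in both (0.20 and 0.50, adjusted p = 0.000542 and 4.89e-10), though at -0.14 with IL-1b on the TPM scale. After GC-length correction 2 of these genes were higher and 3 lower after culture. Of 11 mitochondrial factors, 2 rose and none fell with IL-1b and none rose and 4 fell after culture. Of 9 enzymes that make hypusine on Eif5a and diphthamide on Eef2, 3 rose and none fell with IL-1b, and 1 rose and 1 fell after culture, with Dph3 higher in both (0.42 and 0.97, adjusted p = 0.0023 and 4.38e-08), though as low as -0.10 with IL-1b on the TPM scale. These lists are read against the shares of all genes called that are given above.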

How the data were processed

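PolyA RNA of 9 libraries was sequenced (3 groups of 3). The authors deposited a table per library with expected counts, TPM and transcript lengths per gene. STAR, RSEM and the build mm10 are named in the submitters' processing notes; their versions, the annotation and the strand setting are not stated. The deposited expected counts were rounded to whole numbers, genes passed edgeR's filterByExpr, and all 9 libraries were fitted by group with TMM scaling in edgeR 4.0.16 (quasi-likelihood test, Benjamini-Hochberg over 13043 genes, threshold 0.05; the common biological coefficient of variation was 0.0665). The authors' deposited TPM served for levels between genes and ratios within a library. Symbols came from GENCODE M21 by identifier (99.4% matched), start regions from RefSeq (GRCm38.p6). Alternatives used DESeq2 1.42.0, limma 3.58.1 and mgcv 1.9.3 in R 4.3.3, and the fit was tested on simulated data.

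Members, lists and tests were chosen with earlier results of these data known. The factors given with alternatives were the 5 called members with the largest change each way in each comparison, with at least 5 TPM in a group mean, and a fixed panel. The other members are given by role. 1 gene of this naming and 1 marker gene are not reported here. Library totals are given in the report, and floors cover counting error only. No replicates were identical: their counts differed by more than sampling noise in each pair of a group.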

Additional observations from a re-analysis of the deposited data

How the results depend on the processing

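The number of factors called moved most with the scale. On both log2(TPM) scales, 4 rose and 26 fell in IL-1b-treated against cultured cells, 18 rose and 24 fell in cultured against fresh cells, and 19 rose and 32 fell in IL-1b-treated against fresh cells. With library size alone the numbers that fell were 15, 19 and 24 in these 3 comparisons, beside 3273, 4185 and 5281 of all genes. With effective length as an offset 5 factors fell with IL-1b, beside 917 of all genes, and 2151 genes in all were called. After GC-length correction 2 factors fell with IL-1b, beside 556 of all genes. Leaving out each library in turn gave 25 to 30 factors higher and 5 to 8 lower with IL-1b (5 without the third cultured library), 29 to 32 and 12 to 13 after culture, and 34 to 36 and 13 to 16 in IL-1b-treated against fresh cells.

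The values that follow are for the 33 factors given with alternatives, called or not, and do not list the other factors. Over all 65 tested factors, the called ones with the other sign on both log2(TPM) scales numbered 9, 5 and 10 in the 3 comparisons, after GC-length correction 0, 5 and 6, with library size alone 0, 0 and 3, and with effective length as an offset 0, 1 and 1. On log2(TPM + 1), several log2 fold changes of the 33 had the other sign. In IL-1b-treated against cultured cells these were Eef1g -0.27, Eif1 -0.33, Eif3a -0.22, Eif4a2 -0.02, Eif4b -0.29, Eif5a -0.29, Eif5b -0.26 and Eif6 -0.25. In cultured against fresh cells these were Eef2k -0.41, Eif2b1 -0.18, Eif4a2 -0.03, Eif4b -0.35 and Eif6 -0.13. In IL-1b-treated against fresh cells these were Eef2k -0.99, Eif2b1 -0.18, Eif3a -0.36, Eif4a2 -0.06, Eif4b -0.64, Eif5a -0.03, Eif5b -0.50 and Eif6 -0.37. On log2(TPM + 0.1) the signs were the same, with other values for Eif4b -0.30 in IL-1b-treated against cultured cells, Eif5b -0.27 in IL-1b-treated against cultured cells, Eef2k -0.44 in cultured against fresh cells, Eif2b1 -0.19 in cultured against fresh cells, Eef2k -1.08 in IL-1b-treated against fresh cells, Eif2b1 -0.19 in IL-1b-treated against fresh cells, Eif5b -0.51 in IL-1b-treated against fresh cells and Eif6 -0.38 in IL-1b-treated against fresh cells. After GC-length correction, the sign turned for several of the 33. In IL-1b-treated against cultured cells these were Eef2 0.13, Eif1 -0.18, Eif2ak3 0.06 and Eif5a -0.01. In cultured against fresh cells these were Eef2 0.37, Eif2ak3 0.05, Eif2ak4 0.00, Eif4e -0.01 and Eif4ebp2 0.26. In IL-1b-treated against fresh cells these were Eef2 0.50, Eif2ak3 0.11 and Eif4ebp2 0.20. With library size alone, it turned for several of the 33. In IL-1b-treated against cultured cells these were Eef1g -0.06, Eif1 -0.11, Eif4b -0.09, Eif5a -0.08 and Eif5b -0.07. In cultured against fresh cells this was, among the 33, Eif4b -0.01. In IL-1b-treated against fresh cells these were Eef2k -0.13, Eif3a -0.04, Eif4b -0.10 and Eif5b -0.14. With effective length as an offset, it turned for several of the 33. In IL-1b-treated against cultured cells these were Eefsec 0.01 and Eif1 -0.01. In cultured against fresh cells these were Eef2k -0.20, Eif3a 0.11, Eif4b -0.10 and Eif5b 0.00. In IL-1b-treated against fresh cells these were Eef2k -0.55 and Eif4b -0.09. With upper quartile scaling, Eif1 stood at -0.01 in IL-1b-treated against cultured cells. Leaving out 1 library turned values near 0: without cultured replicate 2 Eif4e3 stood at 0.04 in IL-1b-treated against cultured cells, Eif5 stood at 0.01 in IL-1b-treated against cultured cells and Eef2 stood at 0.01 in cultured against fresh cells, and without IL-1b-treated replicate 2 Eif5 stood at 0.02 in IL-1b-treated against cultured cells, and without IL-1b-treated replicate 1 Eef2k stood at -0.01 in IL-1b-treated against fresh cells, and without fresh replicate 1 Eef2k stood at -0.00 in IL-1b-treated against fresh cells. The cause of these turns was not tested.

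Replicate numbers did not pair the groups: libraries with the same number had deviations from their group means that correlated at -0.08 to 0.06 over 9466 genes. With the replicate block, 28 and 8, 32 and 12, and 35 and 15 factors rose and fell in the 3 comparisons, and the only factor whose call was lost was Eif4b, in IL-1b-treated against fresh cells. RLE and upper quartile scaling, other filters, DESeq2, limma-voom and fits of only the groups compared kept each count of factors within 1.5 times. Summing near-identical copies left the calls of Eif1a, Eif2s3x, Eif1 and Eif3j1 as they were, and Eif4a3 with its intronless copies was not run. Precision was low for factors with few counts: the SE of the log2 fold change with IL-1b was 0.25 for Eif4ebp1, 0.44 for Eif4ebp3 and 0.41 for Eif3j2.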
